A study of Drosophila melanogaster with 11 samples.

Results

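Germ plasm is the specialised cytoplasm at the posterior pole of the Drosophila egg that instructs the first cells formed there, the pole cells, to become germ cells. Its assembly is nucleated by Oskar, and it holds maternal mRNAs such as nanos together with the RNA helicase Vasa and proteins with Tudor domains. The same particles hold PIWI-clade Argonaute proteins, which bind piRNAs, small RNAs that silence transposable elements in the germline. Maternal copies of many of these mRNAs are cleared from the soma of the early embryo and kept longer in pole cells.

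Germ plasm and piRNA genes were defined here as osk, nos, pgc, vas, gcl, tud, piwi, aub, AGO3 and krimp, picked by FlyBase symbol and not by any measured value. All 10 were found among the 17753 genes of the expression files. PolyA-selected mRNA-seq was available for 11 libraries of whole wild-type Oregon-R embryos, each from a pooled collection made in 1 of 4 windows after egg deposition. The windows were 2–4 h (3 libraries), 14–14.5 h (2), 14–17 h (4) and 17–17.5 h (2), with no treatment, transgene or mutant allele in any of them. The study compared the early window, in which the body plan is laid down, with late windows, in which tissues have differentiated. Replicates were independent collections made on different days.

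Libraries held 14472809 to 38904916 estimated counts, the lowest being replicate 2 at 2–4 h. Differential expression was tested with edgeR's quasi-likelihood F-test over all genes past a filter on low counts, and a gene was called at a Benjamini-Hochberg adjusted p under 0.05. Most genes changed between early and late embryos. Of 11623 genes tested at 14–17 h against 2–4 h, 48.2% were called higher and 42.4% lower, so a call as such singles out no gene. The stage labels were checked against markers. Of 7 markers of late tissues, 6 rose at 14–17 h, the exception being elav, whose span is almost wholly shared with another gene, while all 8 markers of early stages fell, among them bnk and nullo, which were listed at 0 in every late library and lie inside other genes. Of the 8 early markers, bcd fell least at 14–17 h, by 0.57 on the log2 scale. Against the same 2–4 h libraries bcd fell by 2.52 at 14–14.5 h and by 1.46 at 17–17.5 h. Replicate 1 at 2–4 h had more of the late markers Osi20 (4.82 TPM, against 0.14 and 0.06 in the other libraries of that window) and Mhc (5.26, against 1.41 and 1.70). The share of TPM taken by the mitochondrial large ribosomal RNA was 11.1% to 14.8% at 2–4 h and 10.02% to 12.2% at 14–17 h, but 5.89% to 6.49% in both narrow late windows, so those windows also differ from the rest in library composition. The median log2 fold change of all genes depended on the scaling. At 17–17.5 h against 2–4 h it was 0.27 with TMM factors and −0.12 with library totals alone, at 14–14.5 h against 2–4 h it was 0.11 with TMM and 0.25 with RLE factors, at 17–17.5 h against 14–14.5 h it was −0.04 with TMM and −0.18 with totals alone, and at 14–17 h against 17–17.5 h it was 0.03 and 0.22. Counts of calls followed. At 17–17.5 h against 14–14.5 h, 3607 genes were higher and 3554 lower with TMM, and 2975 higher and 4409 lower with totals alone. At 14–17 h against 17–17.5 h, the split was 3715 higher and 3640 lower with TMM, and 4829 and 2710 with totals alone.

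Levels are given as TPM, in which each gene is scaled by length and by the total of the library. The deposited length of a gene was its whole span on dm6 including introns. The methods name a library kit made for DNA and no step that keeps the strand, so reads from a stretch covered by several genes were taken here as not told apart, and whether strand was kept was not tested. In 6 members the estimated counts were whole, to within 1e-06, in every library. These were osk, gcl, tud, piwi, aub and krimp, and the estimates of nos, pgc, vas and AGO3 were not whole in any library.

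Compared with 2–4 h, 8 of the 10 members were lower at 14–17 h and 2 were higher, beside 42.4% lower and 48.2% higher over all genes tested. The 8 that fell were osk, nos, pgc, vas, piwi, aub, AGO3 and krimp. The 2 that rose were gcl and tud. The median log2 fold change of the 10 was −2.15, beside 0.19 for all genes. More than 5-fold falls were seen in 5 members and in 12.7% of all genes tested, and rises of that size in 0 members and 30.9% of all genes. The 5 were osk, nos, pgc, aub and krimp, of which osk and krimp lie close to that size. Without replicate 3 of 2–4 h or replicate 1 of 14–17 h they were 3, with osk and krimp lost. Without replicate 4 of 14–17 h they were 4, with osk lost. In whole embryos, fewer cells of a type and less RNA per cell cannot be told apart, and germ cells make up a small part of a late embryo.

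**Figure D1:**
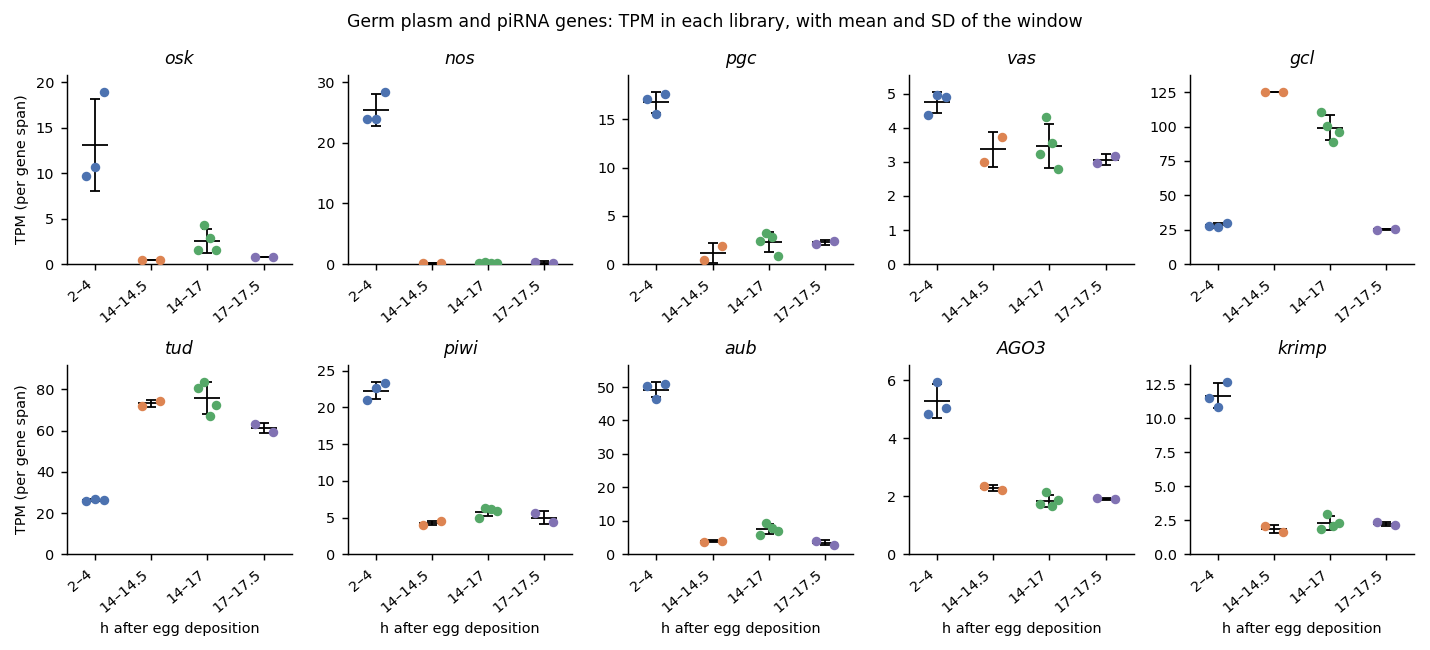
TPM per gene span of the 10 members in each of the 11 libraries, by hours after egg deposition, with a separate linear axis from 0 for each gene. Points are libraries, horizontal bars are window means and error bars are SD. gcl stands high at 14–14.5 h (125 TPM) and 14–17 h and low at 17–17.5 h (25.2 TPM), and tud is high in all late windows. In the other 8 genes all late libraries lie below all 2–4 h libraries. The share of all genes separated in this way was not counted, and 42.4% of genes tested were called lower at 14–17 h.

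Among the genes that build germ plasm, osk (FBgn0003015; chromosome 3R, 8935126 to 8938395, plus strand, 87.7% exonic) encodes the protein that nucleates it. Its level was 9.70, 10.7 and 19.0 TPM at 2–4 h, 0.47 and 0.46 at 14–14.5 h, 1.54, 4.29, 2.89 and 1.58 at 14–17 h, then 0.83 and 0.80 at 17–17.5 h. The highest library at 2–4 h had 1.96 times the lowest, yet each lay above every late library. At 14–17 h against 2–4 h osk fell, with a log2 fold change of −2.39 ± 0.36 (SE) and an adjusted p of 1.1e-04 (edgeR), which is 5.25-fold lower. The fall was −4.85 ± 0.40 at 14–14.5 h and −3.63 ± 0.38 at 17–17.5 h against the same 2–4 h libraries, where osk rested on 19 to 36 estimated counts in a late library.

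vas (FBgn0283442; 2L, 15061656 to 15074311, plus strand) encodes the DEAD-box helicase Vasa, which later marks germ cells throughout life. It had the smallest change among the members that fell. The levels were 4.39, 4.96 and 4.90 TPM at 2–4 h, 3.00 and 3.73 at 14–14.5 h, 3.22, 4.32, 3.55 and 2.78 at 14–17 h, then 2.96 and 3.18 at 17–17.5 h. No late library reached the lowest early one, although 4.32 and 4.39 TPM lie close together. Log2 fold changes were −0.46 ± 0.13 at 14–17 h (adjusted p = 0.0058, edgeR, 1.38-fold lower) and −0.51 ± 0.12 at 14–14.5 h (adjusted p = 0.0033), where leaving out replicate 1 of 14–14.5 h gave −0.38 and an adjusted p of 0.060. At 17–17.5 h it was −0.24 ± 0.10 and was not called (adjusted p = 0.064, edgeR), whereas with library totals alone it was −0.63 with an adjusted p of 0.00072.

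tud (FBgn0003891; 2R, 21183322 to 21192913, plus strand, 92.1% exonic) encodes Tudor, the scaffold with many Tudor domains that binds methylated PIWI proteins and is needed for pole cell formation. Unlike osk, it rose. The values were 26.0, 26.7 and 26.2 TPM at 2–4 h, 71.9 and 74.5 at 14–14.5 h, 80.6, 83.7, 67.1 and 72.3 at 14–17 h, then 63.2 and 59.5 at 17–17.5 h. The lowest late library had 2.23 times the TPM of the highest early one, and the early libraries were nearly equal. The log2 fold changes against 2–4 h were 1.46 ± 0.10 at 14–14.5 h, 1.52 ± 0.09 at 14–17 h (2.87-fold, adjusted p = 5.6e-08, edgeR) and 1.60 ± 0.06 at 17–17.5 h. Changes of this direction were common, as 46.7%, 48.2% and 49.2% of all genes tested were called higher in those comparisons.

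Of the members that act in pole cells, gcl (FBgn0005695; 2R, 8724258 to 8728999, plus strand) encodes Germ cell-less, an adaptor for protein degradation needed to form these cells. Its pattern differed from that of all other members. It stood at 27.6, 26.7 and 30.1 TPM at 2–4 h, 125.1 and 125.3 at 14–14.5 h, 110.4, 100.7, 89.0 and 96.3 at 14–17 h, then 25.1 and 25.4 at 17–17.5 h. The libraries of 14–14.5 h and 14–17 h were thus 2.96 to 5.0 times as high as those of the earliest and latest windows, with no overlap. Against 2–4 h the log2 fold change was 2.13 ± 0.11 at 14–14.5 h (4.39-fold, adjusted p = 2.2e-07, edgeR) and 1.81 ± 0.10 at 14–17 h (3.498-fold, adjusted p = 5.4e-08).

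At 17–17.5 h against 2–4 h the direction of gcl depended on the scaling. TMM gave 0.22 ± 0.06 (adjusted p = 0.014, edgeR), and library totals alone gave −0.16 (adjusted p = 0.056). Its TPM at 17–17.5 h lay below all 2–4 h libraries, and relative to the median of all genes its change was −0.05. No direction is given for it in that comparison, and the 2 members counted as higher there, gcl and tud, are 1 with totals alone. Between the narrow windows, gcl fell at 17–17.5 h against 14–14.5 h by 2.10 on the log2 scale (SE 0.07, adjusted p = 3.7e-06, edgeR), which is 4.28-fold. In that comparison 31.5% of all genes tested were called lower.

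nos (FBgn0002962; 3R, 19157238 to 19160202, plus strand) encodes Nanos, the translational repressor that sets up the abdomen and maintains germ cells. It had the steepest fall of the members. The levels were 23.9, 23.9 and 28.4 TPM at 2–4 h, 0.25 and 0.25 at 14–14.5 h, 0.17, 0.36, 0.20 and 0.26 at 14–17 h, then 0.39 and 0.11 at 17–17.5 h. All 8 late libraries lay under 0.4 TPM and rested on only 4.23 to 15.2 estimated counts each. Its log2 fold change was −6.69 ± 0.19 at 14–17 h (adjusted p = 6.9e-10, edgeR), about 103-fold lower, −6.67 ± 0.22 at 14–14.5 h and −6.30 ± 0.29 at 17–17.5 h, where it was −7.46 without replicate 1 of 17–17.5 h.

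Whether the size of that fall depends on how shared reads were divided was not tested. Of the nos span, 92.6% is also covered by other genes, mostly by CG11779 on the opposite strand. Of the 2349 bp of nos exons, 269 bp overlap exons of CG11779. CG11779 had 55.8 to 69.0 CPM, estimated counts scaled to the library total, in the late libraries, against 24.3 to 25.4 at 2–4 h. The sum of nos and CG11779 was 56.1 to 69.5 CPM in the late libraries, against 53.0 to 59.3 at 2–4 h, so the pair together changed little while the division between them moved. Which of the reads came from which strand was not tested.

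pgc (FBgn0016053; 2R, 22330200 to 22332813, plus strand) encodes a small protein that holds back RNA polymerase II transcription in pole cells. Its values were 17.1, 15.5 and 17.6 TPM at 2–4 h, 0.45 and 1.90 at 14–14.5 h, 2.43, 3.18, 2.80 and 0.85 at 14–17 h, then 2.06 and 2.42 at 17–17.5 h. Late libraries were all far below early ones, and the highest had 7.07 times the lowest of them, a wider range than in any member other than osk (9.37). The log2 fold change was −2.88 ± 0.31 at 14–17 h (adjusted p = 8.9e-06, edgeR, 7.38-fold lower), −3.87 ± 0.40 at 14–14.5 h and −2.52 ± 0.13 at 17–17.5 h. At 14–14.5 h pgc rested on 15.2 and 62.2 estimated counts, and its change was −3.18 without replicate 1 and −5.31 without replicate 2 of that window. T3dh, antisense to 71.7% of the pgc span, had 7.06 to 16.7 CPM in the late libraries, against 0.57 to 1.30 at 2–4 h, and the sum of both was 8.95 to 19.5 CPM late, against 17.96 to 19.3 early.

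vas has a similar neighbour. The span of vig lies inside that of vas on the opposite strand, in an intron with no exon in common, and solo shares most of the vas span and was listed at 0 in every library. vig had 380 to 611 CPM in the late libraries, against 104 to 112 at 2–4 h, while vas had 14.6 to 22.2 CPM late, against 23.7 to 27.4 early. The share of vas estimates that comes from reads of vig was not tested.

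**Figure D2:**
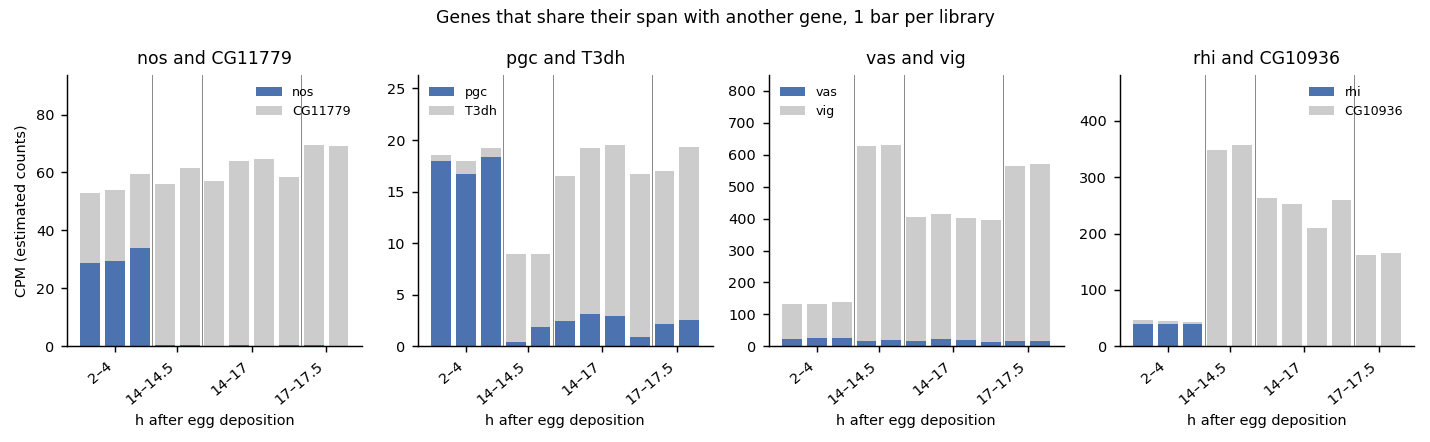
Estimated counts as CPM in each library for nos, pgc, vas and rhi (blue) stacked on the gene that shares their span (grey), 1 bar per library in order of window, each axis from 0. The blue part shrinks from early to late for nos and pgc while the stacked height of nos and CG11779 stays between 53.0 and 69.5 CPM.

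The 3 PIWI-clade Argonautes all fell, and by different amounts. piwi (FBgn0004872; 2L, 10982205 to 10987420, minus strand) encodes the nuclear protein that silences transposons at the level of transcription. It had 21.0, 22.6 and 23.3 TPM at 2–4 h, 4.02 and 4.48 at 14–14.5 h, 4.89, 6.31, 6.208 and 5.87 at 14–17 h, then 5.59 and 4.34 at 17–17.5 h. The late libraries lay close together, the lowest early one having 3.33 times the highest of them. Against 2–4 h it fell, with a log2 fold change of −1.94 ± 0.11 at 14–17 h (adjusted p = 5.0e-08, edgeR, 3.85-fold lower), −2.41 ± 0.11 at 14–14.5 h and −1.79 ± 0.12 at 17–17.5 h.

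aub (FBgn0000146; 2L, 10997819 to 11001476, minus strand) lies near piwi on the same strand and encodes Aubergine, the cytoplasmic slicer of the ping-pong cycle that is also a component of germ plasm. It was the highest member at 2–4 h by TPM, with 50.2, 46.6 and 50.8. The late libraries had 3.76 and 4.08 TPM at 14–14.5 h, 5.86, 9.34, 7.97 and 7.03 at 14–17 h, then 3.95 and 2.91 at 17–17.5 h. The lowest early library had 4.99 times the highest late one. The log2 fold change was −2.72 ± 0.14 at 14–17 h (adjusted p = 3.2e-08, edgeR, 6.58-fold lower), −3.67 ± 0.14 at 14–14.5 h (12.7-fold) and −3.46 ± 0.12 at 17–17.5 h (11.02-fold).

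AGO3 (FBgn0250816; 3L, 23554593 to 23689640, plus strand) encodes the partner of Aubergine in ping-pong. Its span of 135048 bp is 2.36% exonic and holds 106 annotated transposable elements that cover 95207 bp. The TPM values were 4.85, 5.94 and 5.04 at 2–4 h, 2.34 and 2.21 at 14–14.5 h, 1.74, 2.13, 1.65 and 1.86 at 14–17 h, then 1.94 and 1.90 at 17–17.5 h. Every late library lay under every early one. The log2 fold change was −1.52 ± 0.09 at 14–17 h (adjusted p = 5.7e-08, edgeR, 2.86-fold lower), −1.22 ± 0.11 at 14–14.5 h and −1.08 ± 0.12 at 17–17.5 h. How many of the AGO3 counts came from its introns and the elements in them was not tested.

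krimp (FBgn0034098; 2R, 16238103 to 16240722, minus strand, 97.3% exonic) encodes a Tudor-domain protein of the nuage, the perinuclear granules in which the ping-pong cycle takes place. It had 11.5, 10.9 and 12.7 TPM at 2–4 h, 2.10 and 1.65 at 14–14.5 h, 1.82, 2.97, 2.10 and 2.30 at 14–17 h, then 2.34 and 2.14 at 17–17.5 h. The 14–17 h libraries overlapped both narrow windows, which did not overlap each other, and all late libraries stood clear of the early ones. In log2 terms the change was −2.36 ± 0.17 at 14–17 h (adjusted p = 3.0e-07, edgeR, 5.15-fold lower) and −2.66 ± 0.20 at 14–14.5 h. krimp was 4.001-fold lower at 17–17.5 h than at 2–4 h.

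**Figure D3:**
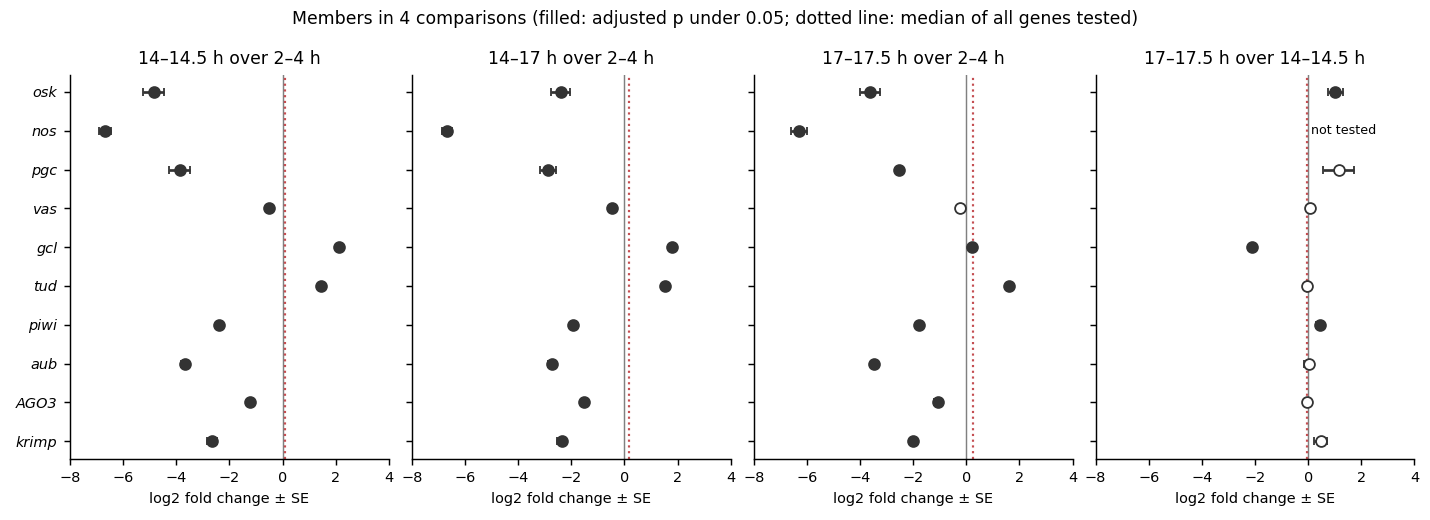
Log2 fold change of each member (x axis, bars are SE) in 4 comparisons, the later window over the earlier one in each panel, with filled symbols for an adjusted p under 0.05 and the dotted line at the median of all genes tested. The 3 panels against 2–4 h share the same 3 early libraries, and nos (−6.69 at 14–17 h) lies farthest left in each of them.

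The narrow late windows were compared with the same 2–4 h libraries. At 14–14.5 h, 8 members were lower and 2 higher (43.3% lower and 46.7% higher over all genes), and 6 fell more than 5-fold (15.5% over all genes). At 17–17.5 h, 7 were lower and vas was not called, while tud was higher, and so was gcl with TMM but not with library totals alone (42.3% lower and 49.2% higher over all genes), and 4 fell more than 5-fold (15.3% over all genes).

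Between the narrow windows, which share no library with the early one, most members were not called. Of the 9 tested at 17–17.5 h against 14–14.5 h, gcl was lower (31.5% of all genes tested were), osk and piwi were higher (32% of all genes were) and 6 were not called. nos was filtered out for low counts. The change in osk was 1.02 ± 0.29 (adjusted p = 0.024, edgeR), from 34 and 36 estimated counts at 17–17.5 h, against 20 and 19 at 14–14.5 h. Leaving out any of the 4 libraries gave adjusted p-values of 0.061 to 0.13 for osk, and DESeq2 gave 0.15. piwi had a change of 0.43 ± 0.14 (adjusted p = 0.035, edgeR), although its TPM values overlapped between the windows, and library totals alone gave 0.29 with an adjusted p of 0.15. Without replicate 1 of 14–14.5 h its adjusted p was 0.19. For tud the log2 change was −0.04 ± 0.06, for AGO3 −0.04 ± 0.07, for vas 0.08 ± 0.12 and for aub 0.02 ± 0.17, with adjusted p-values of 0.54 to 0.93 (edgeR). krimp (0.47 ± 0.23) and pgc (1.15 ± 0.59) had wide errors, and pgc was called without replicate 2 of 14–14.5 h, where edgeR gave an adjusted p of 0.013.

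The broad 14–17 h window spans the time from the earlier narrow window to the start of the later one, yet for osk and aub all its libraries lay above both, as they did for 22.1% of all genes tested. osk had 1.54 to 4.29 TPM at 14–17 h, against 0.46 to 0.47 at 14–14.5 h and 0.80 to 0.83 at 17–17.5 h. The log2 fold change was 2.40 ± 0.49 against 14–14.5 h (adjusted p = 0.0037, edgeR) and 1.40 ± 0.46 against 17–17.5 h (adjusted p = 0.028). Without a library of 17–17.5 h the adjusted p against that window was 0.11 in each case, and without replicate 3 of 14–17 h it was 0.059. aub had 5.86 to 9.34 TPM at 14–17 h, against 3.76 to 4.08 at 14–14.5 h and 2.91 to 3.95 at 17–17.5 h. Its log2 fold change was 0.89 ± 0.18 against 14–14.5 h (adjusted p = 0.0032, edgeR) and 0.90 ± 0.20 against 17–17.5 h (adjusted p = 0.0048), and it was called without any single library. AGO3 was lower than in both narrow windows, by −0.36 ± 0.09 (adjusted p = 0.0078) and −0.29 ± 0.08 (adjusted p = 0.015, edgeR). With library totals alone the second of these was −0.10 with an adjusted p of 0.36. The TPM of AGO3 at 14–17 h, 1.65 to 2.13, overlapped that at 17–17.5 h, 1.90 to 1.94. Neither AGO3 call held in every fit with a single library left out. Over all genes tested, 30.5% were higher and 28.5% lower at 14–17 h than at 14–14.5 h, and 32.3% higher and 31.7% lower than at 17–17.5 h. These 2 comparisons were chosen after the levels had been seen, and both use the same 14–17 h libraries.

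Thus 2 of 10 members were higher at 14–17 h than in both narrow windows, beside 13.5% of all 11339 genes tested in both, and 1, AGO3, was lower than in both, beside 12.4%. Of the 1478 genes that fell more than 5-fold at 14–17 h against 2–4 h, 1093 were tested in both. The share higher than in both was 20.9% among these 1093. Of 26 piRNA pathway partners, 10 were higher than in both, zuc, spn-E, mael and egg included, and 3, arx, boot and del, were lower than in both. Of 17 partners in oocyte RNA localization and germ plasm assembly, 1, BicD, was higher than in both. In that list 5, Hrb27C, Tm1, btz, capu and egl, were lower than in both. Of 12 genes of maternal mRNA repression and decay, 1, smg, was higher and 0 were lower, and of 5 somatic gonad genes 0 were either. Among 6 early stage markers, 2, bcd and slam, were higher and 1, eve, was lower. Late tissue markers did so at a similar share, as 2 of 7, Mhc and Mlp60A, were higher and 1, Syt1, was lower. Of 8 germ cell genes, 2, CycB and bam, were higher and 1, bgcn, was lower. In the miRNA and siRNA pathways 1 of 8, Dcr-2, was higher and 1, AGO1, was lower. bcd, the maternal mRNA that patterns the anterior, had 17.0 to 24.8 TPM at 14–17 h, against 4.35 to 6.64 at 14–14.5 h and 7.05 to 10.3 at 17–17.5 h. smg, a repressor of maternal mRNAs, had 101.2 to 147 TPM at 14–17 h, against 41.2 to 44.6 and 39.5 to 52.7 in the narrow windows. The share of these transcripts and of the mitochondrial ribosomal RNA in the result for osk and aub was not tested.

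**Figure D4:**
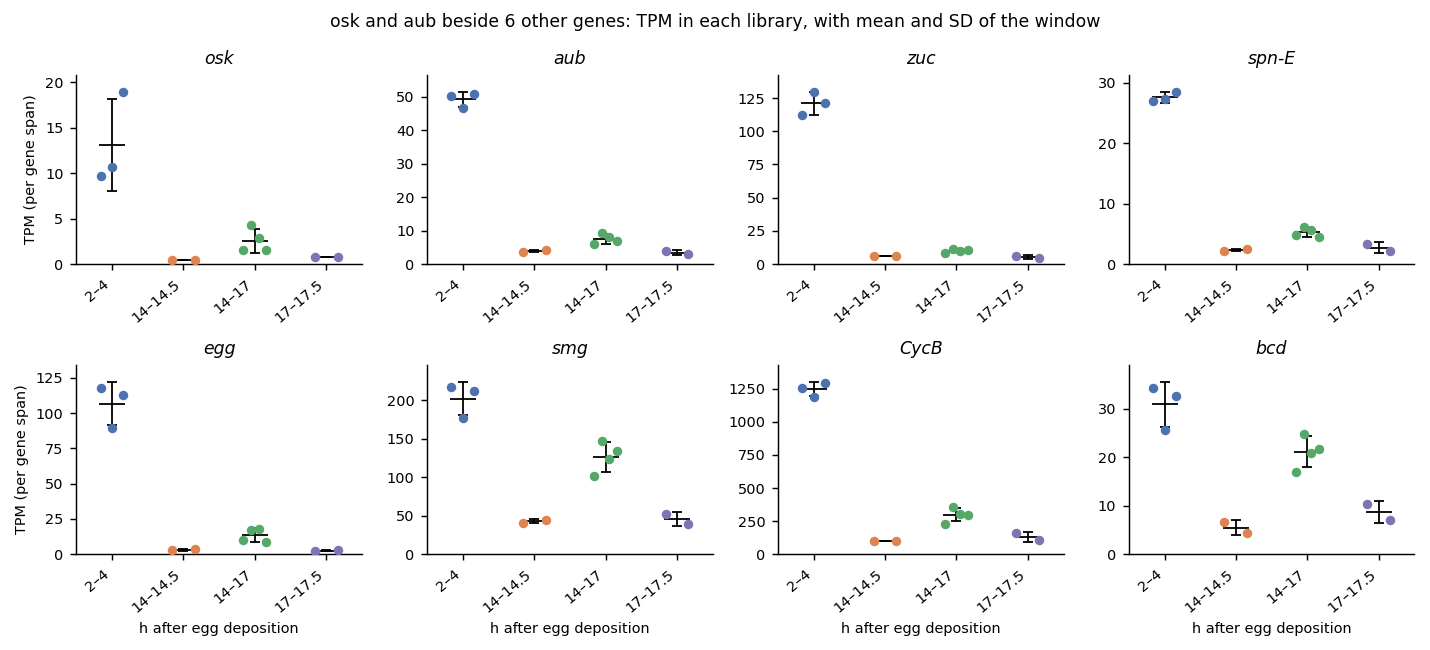
TPM per gene span of osk, aub and 6 other genes in each library by hours after egg deposition, with window means and SD, each axis from 0. In all 8 panels the 14–17 h libraries lie above those of 14–14.5 h and 17–17.5 h, as for bcd with 17.0 to 24.8 TPM at 14–17 h. All 8 genes shown are among those called higher at 14–17 h than in both narrow windows, so the shared pattern follows from which genes are shown. Over all genes tested, 13.5% were called so. Genes that were lower than in both, such as AGO3, arx and del, are not shown.

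The order of the members by level changed between windows and with the length used. By TPM per span at 2–4 h, aub (49.2 ± 2.3, SD, n = 3) led, gcl (28.1 ± 1.7), tud (26.3 ± 0.4), nos (25.4 ± 2.6) and piwi (22.3 ± 1.2) followed and overlapped in part, then came pgc (16.8 ± 1.1), osk (13.1 ± 5.1) and krimp (11.7 ± 0.9), of which osk overlapped its neighbours. AGO3 (5.27 ± 0.58) and vas (4.75 ± 0.31) were lowest and overlapped. At 14–17 h the order was gcl (99.1 ± 9.0, n = 4), tud (75.9 ± 7.6), aub (7.55 ± 1.47), piwi (5.82 ± 0.65), vas (3.47 ± 0.65), osk (2.57 ± 1.30), pgc (2.31 ± 1.02), krimp (2.30 ± 0.49), AGO3 (1.85 ± 0.21) and nos (0.25 ± 0.08), where gcl stood clear of tud, tud stood at least 8.41 times above aub in every library, and most neighbours from aub to AGO3 overlapped.

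With CPM per kilobase of exons in place of TPM per span, AGO3 moved to the top at 2–4 h, at 97.7 ± 12.4 CPM per kilobase, ahead of aub at 24.6 ± 0.8 and gcl at 22.2 ± 1.1. AGO3 is nearly all intron, so its place in the order is set by the length used. vas, with 18.1% of its span exonic, stood at 11.3 ± 0.8 CPM per kilobase, close to tud at 12.2 ± 0.3. The fold of a gene between windows does not depend on its length, so the comparisons above hold on either scale.

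Other genes of the pathways were taken from lists drawn up by known role. Of 28 piRNA pathway partners tested at 14–17 h against 2–4 h, 23 fell (82.1%, beside 42.4% of all genes), 3 rose (10.7%, beside 48.2%) and 2 were not called, and the median log2 fold change was −2.02, beside 0.19 for all genes. More than 5-fold falls were seen in 12 of them, beside 12.7% of all genes. The 23 and the 12 both include rhi, which was listed at 0 in every late library, and without rhi the median was −1.97. Among the genes of piRNA production, zuc, the endonuclease that cuts precursors on mitochondria, fell by 3.59, spn-E, a helicase of the nuage, by 2.40 and armi, a helicase that feeds precursors to it, by 1.25. mael, which acts downstream of Piwi in silencing, fell by 1.97. The 3 that rose all encode Tudor-domain proteins, but so do genes that fell, such as spn-E, egg and the member krimp. tapas rose by 1.96, with 1.91% of its span shared with other genes, and papi by 0.80, with none shared. qin rose by 1.06, with 69.2% shared.

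Of the factors of transcriptional silencing, Panx and arx, which act with Piwi, fell by 2.08 and 3.76, and egg, the histone H3K9 methyltransferase, fell by 3.00 (95.9% of its span is shared with an antisense RNA). Among partners at dual-strand piRNA clusters, cuff fell by 4.94, on 3 to 9 estimated counts in a library of 14–17 h, and del fell by 0.71. rhi, the chromodomain protein of those clusters, was listed at 0 in all 8 late libraries, against 580 to 1247 estimated counts at 2–4 h. Its span lies wholly inside that of CG10936, which had 162 to 357 CPM in the late libraries, against 4.69 to 6.26 at 2–4 h. No fold is given for rhi for this reason. Of the 105 genes in the lists, 9 lie wholly inside another gene, and all 5 that were listed at 0 in 8 or more libraries are among these 9, including zpg, a gap junction gene of germ cells.

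Partners in oocyte RNA localization and germ plasm assembly were close to all genes in their counts. Of 17 tested, 8 fell (47.1%, beside 42.4% of all genes), 6 rose (35.3%, beside 48.2%) and 3 were not called, with a median log2 fold change of −0.25. stau, a double-stranded RNA-binding protein that goes with osk mRNA, fell by 1.31, and capu, an actin nucleator, rose by 1.39. bru1 and orb, regulators of osk translation, had 0.36 and 0.31 and were not called (adjusted p = 0.092 and 0.094, edgeR). Of 12 genes of maternal mRNA repression and decay, 11 fell (91.7%) and 0 rose, the last being pum, the partner of Nanos, at 0.00 ± 0.12 with an adjusted p of 0.98 (edgeR). brat, which acts with Pumilio and Nanos, fell by 0.94 and smg by 0.69.

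Of 8 germ cell genes tested, 6 fell (75.0%, beside 42.4% of all genes). ovo, a transcription factor of the female germline that also acts in the epidermis, fell by 0.26, and CycB, a cyclin whose mRNA is enriched in pole cells but found in all dividing cells, fell by 2.07. Of 5 genes of the somatic gonad, 2 rose (beside 48.2% of all genes) and 3 fell (beside 42.4%). Their median log2 fold change was −0.70, beside 0.19 for all genes. tj, a transcription factor of gonadal soma, rose by 5.78, with 6.18 to 7.44 TPM at 14–17 h, against 0 to 0.16 at 2–4 h. zfh1 rose by 0.41, while Six4 fell by 3.43, eya by 1.51 and foi by 0.70. In the miRNA and siRNA pathways, which use other Argonautes, 7 of 8 genes fell (87.5%, beside 42.4% of all genes) and 0 rose. AGO1 had −0.12 (adjusted p = 0.24, edgeR). It had 0.38 at 17–17.5 h against 2–4 h (adjusted p = 0.0011, edgeR), which was not called with library totals alone (adjusted p = 0.99). AGO2 fell by 0.36, with 105 to 119 TPM at 14–17 h, against 140 to 149 at 2–4 h. Against 2–4 h it was not called in the narrow windows, at 0.12 at 14–14.5 h and −0.10 at 17–17.5 h (adjusted p = 0.31 and 0.22, edgeR).

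**Figure D5:**
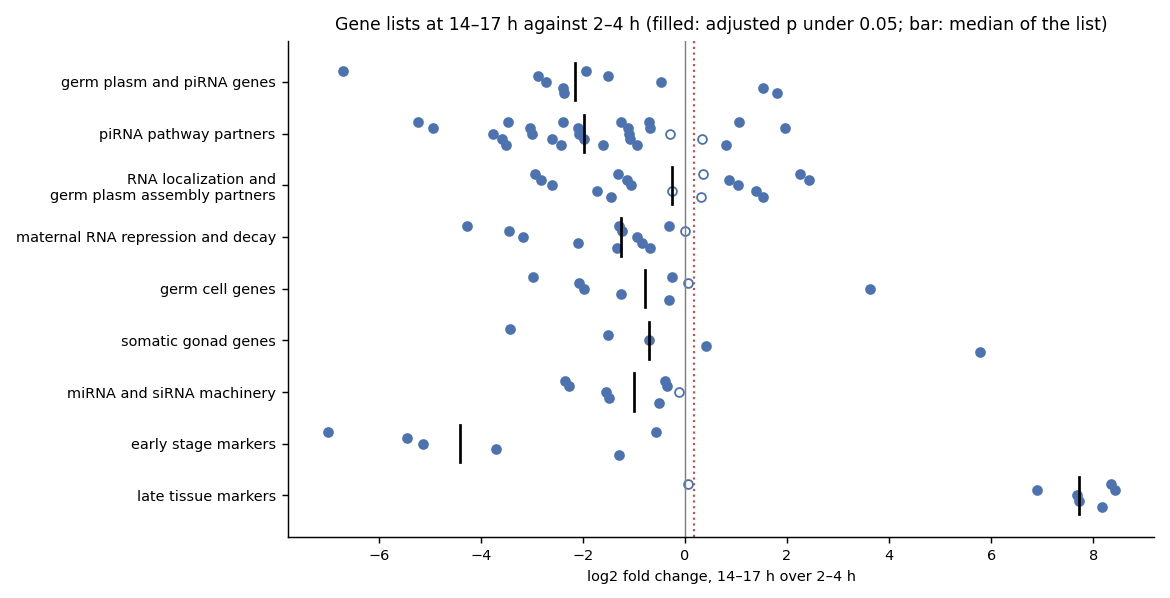
Log2 fold change at 14–17 h over 2–4 h for each gene of the 9 lists, with filled symbols for an adjusted p under 0.05, a vertical bar at the median of each list and a dotted line at the median of all genes (0.19). Genes listed at 0 in all late libraries are left out, and without them the median of the piRNA pathway partners is −1.97, close to that of the members (−2.15).

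The genes whose pattern over the 11 libraries was most like that of 3 members are given as a description, by Pearson's r of log2(TPM + 1) among 11040 genes with a mean of at least 1 TPM. For nos they were nesd, Cdc45 and bnk, at r of 0.999 each, and 2223 genes were above 0.95. bnk is among the genes listed at 0 in late libraries. For piwi they were cni, TAF1B and CG14111, at 0.998, 0.998 and 0.997, with 2070 genes above 0.95. For vas they were ppk3 at 0.948, CG13551 at 0.941 and Tom20 at 0.932, and 0 genes were above 0.95. The libraries of a window lie close together in these genes, so the values mainly follow the step between early and late embryos.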

How the data were processed

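PolyA mRNA was sequenced by the authors from whole embryos, with a kit made for DNA libraries, and whether strand was kept is not given in the sources used here. Which library was run on which of the instruments is not given in the sources used here. Estimated counts per gene and library were deposited by the authors, made with kallisto (version not given in the sources used here) on dm6, with base calling by CASAVA 1.8.2 per the labels' processing notes. TPM values were deposited by the authors, in which kallisto divides each estimate by a length that allows for fragment size. Of 17625 genes found in the annotation (Ensembl release 115, dm6 coordinates), 17502 had a deposited length equal to their span. Values that were not whole made up 27.3% to 30.8% of the estimates above 0 in a library. The symbol nos was matched by gene ID, since Nos in the same table is another gene.

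Estimated counts were rounded and tested with edgeR 4.0.16 in R 4.3.3 (filterByExpr, TMM, quasi-likelihood F-test, two-sided, Benjamini-Hochberg adjustment over all genes tested), with the libraries of the compared windows only. SE is the absolute log2 fold change over the square root of F. CPM is the estimated count over the library total. Union exon lengths came from the annotation. Depth ranged over 14472809 to 38904916 estimated counts, so 3 counts correspond to 0.077 to 0.21 CPM, for counting error only. P-values measure the spread between collections. Alternatives were RLE factors, library totals, no filter, DESeq2 1.42.0, all 11 libraries in 1 fit, a replicate block, each library left out, log2(TPM + 1) or log2(TPM + 0.1), and exon length. The tests were tested on simulated data. Tables were made with pandas 2.3.3 in Python 3.11.15 and figures with matplotlib 3.10.9.

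The members, the lists and the rule for named genes were chosen with earlier results of these data known. Named were all members, partners picked for their known roles, and the 3 genes most like nos, vas and piwi. bcd, Osi20, Mhc, elav, bnk, nullo, genes named beside a count of 5 or fewer and the genes that share a span with a member were added after their values were seen. Promoter and protein sequences were not analysed here. A gene of the lists is not reported here.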

Additional observations from a re-analysis of the deposited data

Results flagged for a closer look

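For 3 members the change since 2–4 h differed between the narrow late windows, by the direct edgeR test of 17–17.5 h against 14–14.5 h. gcl differed by −2.10 on the log2 scale (adjusted p = 3.7e-06, lower in 2 of 2 libraries), osk by 1.02 (adjusted p = 0.024, higher in 2 of 2) and piwi by 0.43 (adjusted p = 0.035, with overlapping TPM). Of these, gcl alone was called in every alternative that gives a test. In the 4 libraries of 14–17 h, no member had a value far enough from the rest to be set apart, the widest gap being in piwi at 0.689 of its range.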

How the results depend on the processing

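Of 678 refits of a member in 1 comparison on the counts, 605 kept the direction and the side of the threshold, 29 lost a call, 12 gained one and 32 changed sign. Of those 32, 28 were called neither before nor after, and 4 lost a call. At 14–17 h against 2–4 h all 10 members kept direction and call in each of these. The called value that changed sign was that of gcl at 17–17.5 h against 2–4 h, which was −0.16 with library totals alone, −0.044 with no filter, −0.15 as log2(TPM + 1), with or without a filter at a mean of 1 TPM, −0.16 as log2(TPM + 0.1), and −0.081 to 0.28 with 1 library left out. Members called higher in that comparison (2) numbered 1 with library totals alone, with no filter and with all 11 libraries in 1 fit, and 1 to 2 with 1 library left out. At 17–17.5 h against 14–14.5 h, members called higher (2) numbered 1 with library totals alone, with no filter, with DESeq2 and with all 11 libraries, and 0 to 1 with 1 library left out, while members called lower (1) numbered 2 with library totals alone. Members called lower at 14–17 h numbered 1 to 2 against 14–14.5 h with 1 library left out, and against 17–17.5 h 0 with library totals alone and 0 to 1 with 1 library left out. Uncalled values changed sign as well. With library totals alone, vas was −0.064 and aub −0.12 at 17–17.5 h against 14–14.5 h, vas was 0.065 and tud 0.073 at 14–17 h against 14–14.5 h, and pgc was 0.00077, vas 0.13 and piwi 0.19 at 14–17 h against 17–17.5 h. With 1 library left out, at 17–17.5 h against 14–14.5 h vas ranged over −0.059 to 0.23, aub over −0.15 to 0.20 and AGO3 over −0.093 to 0.019, at 14–17 h against 14–14.5 h nos over −0.16 to 0.050, vas over −0.15 to 0.13 and tud over −0.032 to 0.031, and at 14–17 h against 17–17.5 h nos over −0.82 to 0.93, pgc over −0.36 to 0.078, vas over −0.16 to 0.047 and piwi over −0.12 to 0.14. The cause was not tested. Where a window was left with 1 library, that library was assumed to vary like the other window.

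Replicate numbers were not taken to pair the libraries. Deviations of same-numbered libraries correlated at −0.078 to 0.19 over 9 pairs in 4 comparisons, with 1 pair, of 17–17.5 h and 2–4 h, over 0.1, and at −0.042 to 0.087 over the 3 pairs of 14–17 h and 2–4 h. With the replicate block, members called higher at 17–17.5 h against 14–14.5 h numbered 0 and members called lower at 14–17 h against 17–17.5 h numbered 0. At 14–17 h against 2–4 h, 5559 genes were higher and 4824 lower with the block. Uncalled values that changed sign with the block were at 14–17 h against 14–14.5 h vas at 0.063 and tud at 0.070, and against 17–17.5 h pgc at 0.036 and vas at 0.0019.

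Exon length changed the rank of a member by level in 30 of 40 cases, and leaving out mitochondrial genes in 0 of 40. Low counts limit nos in all late libraries, osk in the narrow windows and pgc at 14–14.5 h. Motifs in promoters and identity between proteins were not run.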
